A study of Macaca mulatta with 11 samples.

Results

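CpG-rich regions at an intermediate methylation level were described in 11 rhesus macaques (Macaca mulatta), in tissue of area 46 of the prefrontal cortex. CpG positions at most 200 bp apart were joined, the runs were split every 1000 bp, and a region was kept when it held 20 or more positions and had a pooled level from 20% to 80%. The pooled level is the methylated share of all read counts at the region's positions, summed over the 11 animals. Of 45982 regions with 20 or more positions, 11324 met these limits, 24051 lay below 20% and 10607 above 80%. From the 11324, 775 in which every animal lay between 40% and 60% and 32 in which the animals differed by more than 50 percentage points were dropped. This left 10517 regions, 22.9% of the CpG-rich regions, which held 384155 of the 3115109 measured positions (12.3%) on chromosomes 1 to 20. The regions were selected on their measured levels, pooled and per animal, so these levels are given as a description.

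The samples were DNA libraries of tissue taken before any ethanol was drunk, and no untreated or ethanol-exposed group stands beside them. Cohort 10 had 2 animals, aged 5.02 and 5.08, with ethanol values of 2.11 and 3.19. Cohort 14 had 9 animals, aged 5.18 to 5.44, with ethanol values of 1.69 to 4.31. The ethanol value is the number each label gives for 6 months of later drinking, and neither it nor age has a stated unit. The bisulfite libraries came from SureSelect XT Human Methyl-Seq, a capture kit whose probes were designed on the human genome.

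In DNA methylation a methyl group is added to the cytosine of a CpG, and DNA methyltransferases copy the mark when cells divide. Dense clusters of CpGs, called CpG islands, are mostly free of methylation at active promoters, while the CpGs around them are mostly methylated, and the flank between both states is called a shore. An intermediate level is known from imprinted genes, where the parental copies differ, from mixtures of cell types and from sites where cells of a type differ. In bulk tissue, cells that differ from each other and partial methylation within every cell cannot be told apart. Methylation counts hold no expression of marker genes, so the tissue label was not checked. Coordinates are those of the count tables, whose genome build is not given in the sources used here, and no gene was assigned to a region.

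Libraries held 479979855 to 934657900 read counts summed over positions, with a mean of 154 to 300 per position. The median region of the set had 4933 to 9560 counts per animal, summed over its positions. A read that covers several positions counts at each of them, so these sums are not numbers of separate reads. The smallest sum behind any level was 331. In animals 3, 6, 7 and 8 of cohort 14, 6.32% to 7.19% of positions stood at the lowest count of unmethylated reads, against 3.38% to 4.70% in the others. These 4 libraries were also the highest or lowest animal most often. Each was so in 1976 to 3808 regions, against 1264 to 1945 in each of the other 7. The margin was narrow, and by the median absolute deviation of an animal the groups overlapped. This deviation was 2.42 to 3.73 points in the 4 and 1.90 to 2.78 in the other 7. Only animal 6 of cohort 14 lay above each of the other 7 by both measures. In boundary-crossing regions animal 1 of cohort 10 was highest or lowest more often than animals 3, 7 and 8 of cohort 14. The spread between animals is given with and without these 4 libraries.

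The regions fell into even stretches and stretches that crossed a boundary. For each region, the largest step was the largest difference between the mean level left and right of any split with at least 5 positions on each side. In 5475 regions (52.1%) the largest step was under 30 points, and these are called even. In 2466 (23.4%) it was 50 points or more, and these are called boundary-crossing. The other 2576 (24.5%) are called graded. The classes depended on their limits: with 20 and 40 points as limits, 3524 regions were even.

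Even regions were mostly at the upper end of the range. Of the 5475, 3155 (57.6%) had a pooled level above 60%, 1031 lay between 40% and 60%, and 1289 lay under 40%. Boundary-crossing regions lay mostly at the lower end, with 1717 (69.6%) under 40%. Inside the median even region, 72.2% of positions had a level of 20% to 80% and 13.6% lay over 80%. Inside the median boundary-crossing region, 27.3% of positions were at 20% to 80%, 60.4% lay under 20% and 10.7% over 80%. In the median graded region 56.5% of positions were at 20% to 80%.

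**Figure D1:**
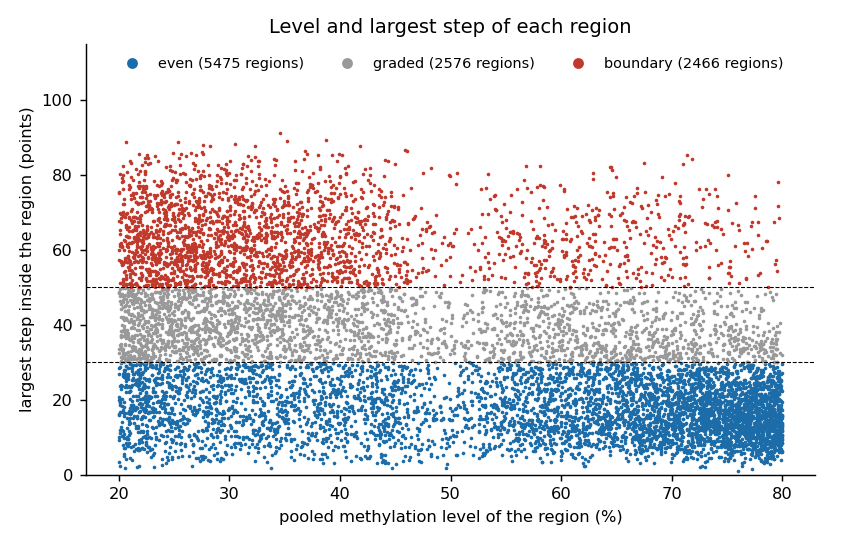
Each point is 1 of the 10517 regions, with its pooled methylation level (x axis, percent) against the largest step inside it (y axis, percentage points); dashed lines mark 30 and 50 points. The 5475 even regions crowd towards 80% and the 2466 boundary-crossing regions towards 20%. The band from 40% to 60%, from which 775 regions were dropped, holds 2094 regions, fewer than the 4313 below it and the 4110 above it.

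The single animals repeated the class of the pooled reads to a different degree. In 2968 even regions (54.2%) the step was under 30 points in each of the 11 animals by itself. In 1683 boundary-crossing regions (68.2%) it was 50 points or more in each animal.

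CpG density hardly set the classes apart. The median was 4.45 positions per 100 bp in even, 4.50 in graded and 4.61 in boundary-crossing regions. It was 6.32 in CpG-rich regions under 20% and 4.63 in those over 80%. Boundary-crossing regions were longer, with a median of 948 bp and 39 positions, against 773 bp and 28 positions in even regions. In 954 regions (9.07%) at least 1 pair of listed positions lay 1 bp apart, as the strands of a single CpG do, and in 160 regions fewer than 20 CpGs remained when such pairs were counted once.

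The boundary was a change from a nearly unmethylated to a largely methylated stretch. The split that gave sides and places had the largest squared difference between side means, weighted by the numbers of positions on both sides. It need not be the split with the largest step, which set the class. On chromosome 19 from 38495139 the largest step was 56.0 points and the difference at this split 45.0 points. Over the 2466 regions the median level was 9.24% on the low side of the split and 73.2% on the high side. In 414 regions (16.8%) the low side lay under 20% and the high side over 80%, and in 379 the low side itself was at 20% or more. By distance, the mean level was 6.76% at 450 to 500 bp on the low side and rose to 24.8% in the last 50 bp before the split. It was 60.4% in the first 50 bp beyond it and 81.9% at 450 to 500 bp on the high side. The split was chosen on the same levels, which fixes the jump in part, and the bins hold different regions, with 4626 positions in the farthest bin of the low side and 1204 in that of the high side.

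**Figure D2:**
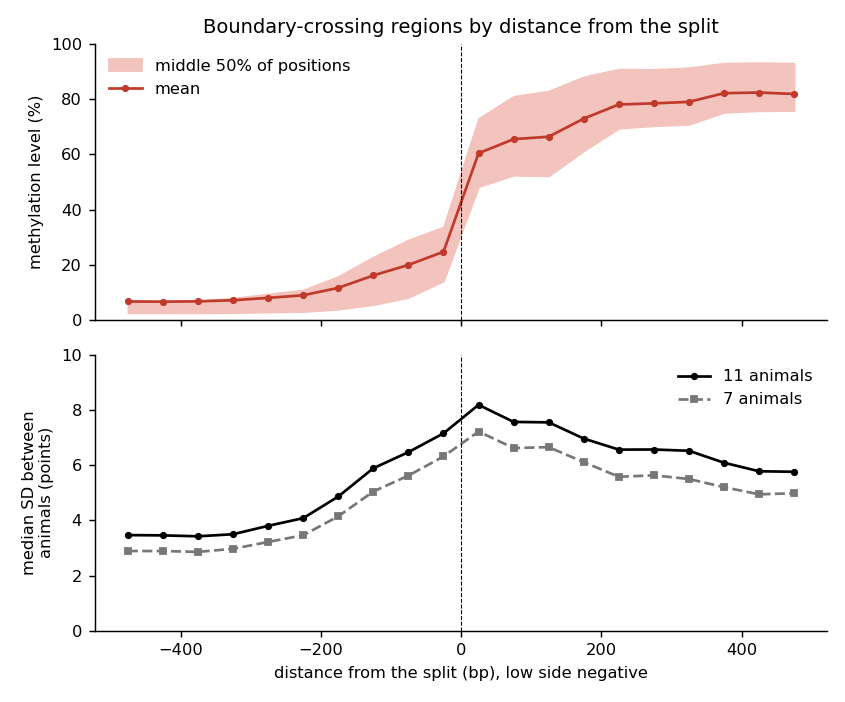
Positions of the 2466 boundary-crossing regions in 50 bp bins of distance from the split (x axis, bp, low side negative). The upper panel shows the mean level in percent with the middle 50% of positions, from 6.76% at the far low side to 81.9% at the far high side; the lower panel shows the median SD between animals at single positions, for 11 animals and for the 7 left without animals 3, 6, 7 and 8 of cohort 14, highest at 8.18 and 7.22 points just beyond the split.

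In most of these regions the place of the boundary was close between the animals. The class was chosen on a step in the pooled reads of the same 11 animals. That choice favours regions with a shared direction and place, so the agreement is a description only. When the split was found in each animal by itself, all 11 had it in the same direction in 2458 of the 2466 regions. The median distance between the outermost of these splits was 73.5 bp. It was at most 100 bp in 1471 regions (59.7%), and in 589 (23.9%) all animals had the split between the same neighbouring positions. The median gap between the positions on either side of the split was 40 bp, which limits how finely the place of a split can be told.

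Levels next to the boundary-crossing regions, which did not decide the choice of those regions, followed the side. A neighbouring region of 5 or more positions within 1000 bp was found on the low side of 2043 boundary-crossing regions. Of these neighbours, 1521 (74.4%) lay under 20% and 74 (3.62%) over 80%, with a median of 5.36%. On the high side 733 regions had a neighbour, of which 451 (61.5%) lay over 80% and 11 under 20%, with a median of 84.0%. Of the 5418 neighbours of even regions, 2907 (53.7%) were intermediate. For comparison, of all 140730 regions with 5 or more positions, 11324 with 20 or more positions and 37789 with 5 to 19 lay at 20% to 80%. Of the 45982 regions with 20 or more positions, 24051 lay under 20% and 10607 over 80%. These shares were not computed for the 140730. Some neighbours were the next piece of the same run, cut at 1000 bp. Some were members themselves, chosen on their own level, and even regions could be neighbours of each other, so the shares are a description. Around even regions at 20% to 40%, 789 of 1445 neighbours (54.6%) lay at 20% to 80% and 529 (36.6%) under 20%. Around those at 40% to 60%, 648 of 993 neighbours (65.3%) lay at 20% to 80%, and around those above 60%, 1470 of 2980 (49.3%) did and 1341 (45.0%) lay over 80%.

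Most even regions stood alone, and some came in groups. With neighbours counted up to 1000 bp apart, 4633 even regions had no even neighbour, and 842 (15.4%) lay in 379 runs of 2 or more. The run longest in bp lay on chromosome 8 from 145664081 to 145670175, with 6 regions and 332 positions over 6095 bp. Its regions ran from a pooled level of 25.5% to 73.8%, so the level changed within the run while each piece stayed even. Its last region, of 80 positions from 145669335, had 23.8% in the lowest, 40.3% in the median and 50.3% in the highest animal. The second by length lay on chromosome 6 from 138789125 to 138795102, with 5 regions, 247 positions and levels of 23.2% to 47.0%. There the animals were closer together: the region from 138792219 to 138793197 had 18.1% in the lowest, 23.4% in the median and 28.1% in the highest animal. The third by length, on chromosome 14 from 1375203 to 1380352, had 4 regions at 59.3% to 74.9%, and animal 6 of cohort 14 was the highest animal in each of the 4.

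Neighbouring even regions also varied together between animals. Over 463 pairs at most 1000 bp apart, the median correlation of the 11 levels was 0.42, and without the 4 libraries named above it was 0.43. Over 5133 pairs at least 1 Mb apart on the same chromosome it was 0.01. The low and high sides of the 2466 boundary-crossing regions had a median correlation of 0.26. Each value rests on 11 animals, pairs share their libraries, and the correlations are given as a description.

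Animals differed more in even than in boundary-crossing regions. The SD between the 11 animals had a median of 4.35 points in even, 3.83 in graded and 3.39 in boundary-crossing regions. Without the 4 libraries the medians were 3.74, 3.41 and 3.16 points. The order held within each band of level: at 20% to 40% the medians were 4.10 points in even and 3.21 in boundary-crossing regions, at 40% to 60% they were 5.54 and 4.27, and at 60% to 80% they were 4.10 and 3.49. The range limit that chose the regions bears on these values. So does the dropping of the 775 regions with every animal at 40% to 60%, which took regions with close animals out of that band. The difference was therefore not tested. CpG-rich regions outside the set were closer between animals, with a median SD of 0.781 points under 20% and 1.83 over 80%. Counting error, computed as if every count were independent, was 0.571 points in the median region of the set. Positions on the same read are not independent, and some reads may be PCR copies, so the true error is larger.

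Over the boundary-crossing regions together, the spread was larger at the boundary and on the high side than on the low side. The low side had a median SD between animals of 1.99 points and the high side 3.83, and the low side was the tighter one in 1945 regions (78.9%). With a median level of 9.24% the low side lay near 0%, which limits its SD. In regions with a pooled level of 20% to 40% the low and high sides had 1.62 and 4.12 points. At 40% to 60% they had 3.02 and 3.56. At 60% to 80% the order was reversed, with 3.99 and 2.56. At single positions the median SD rose from 3.46 points at 450 to 500 bp on the low side to 8.18 just beyond the split and was 5.76 at the far high side. Counting error is larger at single positions than in whole regions and largest at middle levels. It was not separated from the spread between animals.

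Few regions of the set had 1 animal far from all others. With a gap of at least 15 points to the nearest animal, 1 animal was higher in 29 regions and lower in 32, and 54 of these 61 cases were in even regions. Animal 6 of cohort 14 made up 10 of the 29 and 12 of the 32. The 4 libraries took 52.7% of all highest and lowest places in even regions and 43.3% in boundary-crossing regions. Without them the median SD was 3.74 points in even and 3.16 in boundary-crossing regions, closer together than the 4.35 and 3.39 points with them and in the same order.

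The even regions with the widest spread came close to the 50 points that the choice of the set allows. On chromosome 19 from 382772 to 383012, 32 positions had 40.1% in the lowest, 68.4% in the median and 89.4% in the highest animal. The 21 positions on chromosome 7 from 167877380 to 167877642 had 14.1%, 31.3% and 60.9%, again in that order. On chromosome 5 from 118646 to 119029, 37 positions had 11.1%, 29.3% and 59.2%, where animal 7 of cohort 14 and animal 2 of cohort 10, at 56.8%, stood above the others. At the other end, 63 positions on chromosome 19 from 10047731 to 10048713 had 22.4%, 23.7% and 25.4%. On chromosome 15 from 6459312 to 6460174, 29 positions had 64.9%, 66.7% and 67.8%. On chromosome 4 from 136541424 to 136542353, 22 positions had 76.0%, 78.3% and 79.3%. The level of regions called even was thus nearly the same in all animals in some places and spread over nearly 50 points in others. The name refers to the largest step only. In the chromosome 15 region 31.0% of positions lay over 80% and 10.3% under 20%, and in the chromosome 4 region 50% lay over 80%.

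The largest even regions also differed widely between animals. On chromosome 20 from 29808369 to 29809351, 207 listed positions had 4.43% in the lowest, 10.6% in the median and 53.6% in the highest animal, animal 2 of cohort 14. That region had 412888 to 1893917 counts per animal, summed over its positions, the most in animal 2 of cohort 14. The median over the even regions was 5811. Its pooled level was 24.6% but the mean of the 11 animals was 16.9%, so it is in the set only because reads and not animals are weighted equally. The mean of the animals lay under 20% in 26 regions of the set and over 80% in 28. On chromosome 19 from 57896121 to 57897092, 201 positions had 30.8%, 42.1% and 61.3%, and further along, from 57906772 to 57907762, 175 positions had 60.4%, 72.2% and 80.4%. On chromosome 15 from 1367722 to 1368568, 150 positions had 29.1%, 40.1% and 51.2%. On chromosome 5 from 24453086 to 24454027, 148 positions had 53.4%, 73.8% and 94.6%, with animals of cohort 14 at both ends. Its sides lay at 65.3% and 89.3%, with SDs between animals of 16.9 and 3.80 points. The largest step in a single animal reached 41.4 points, so this region was not even in every animal. In these 5 regions 36 to 110 pairs of positions lay 1 bp apart.

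The largest boundary-crossing regions were tighter, with 1 exception. On chromosome 17 from 31687687 to 31688656, 213 positions had 21.2% in the lowest, 25.1% in the median and 33.1% in the highest animal, and the levels of its sides were 7.77% and 61.6%. On chromosome 19 from 38495139 to 38496133, 171 positions had 24.4%, 29.7% and 31.5%. On chromosome 8 from 2512705 to 2513702, 158 positions, none of them paired, had 24.4%, 28.6% and 35.6%, with sides at 11.7% and 70.7%. On chromosome 7 from 167551356 to 167552355, 126 positions had 17.5%, 20.9% and 27.0%, and the splits of the animals lay within 10.5 bp. The exception was chromosome 1 from 185064796 to 185065764, where 128 positions had 17.8%, 25.1% and 48.8%, the last in animal 1 of cohort 10. Of the graded regions, the largest, 180 positions on chromosome 4 from 14265642 to 14266641, had 72.3%, 78.6% and 81.4%, and 171 positions on chromosome 3 from 53445320 to 53446319 had 17.9%, 36.7% and 49.2%.

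**Figure D3:**
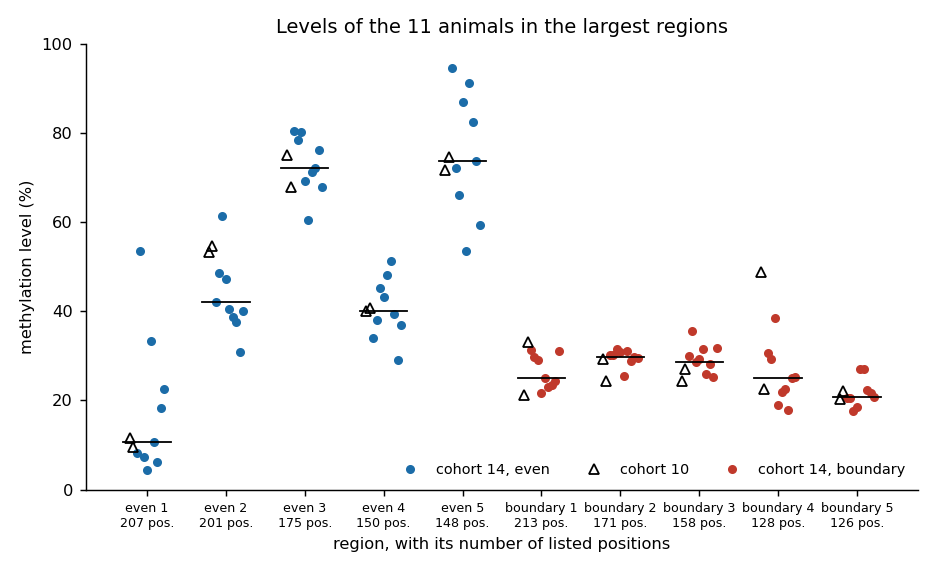
Methylation level in percent (y axis) of each of the 11 animals in the 5 even and the 5 boundary-crossing regions with most listed positions (x axis); filled circles are cohort 14, open triangles cohort 10, and lines mark the median. The even regions spread widely, such as 4.43% to 53.6% in the first, whose mean over animals of 16.9% lies under the 20% limit, and the boundary-crossing regions lie between 17.5% and 35.6% except the fourth, which reaches 48.8%.

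At the limits of the set, the choice rested on small differences. On chromosome 4 from 37768251 to 37769205 and on chromosome 3 from 157241668 to 157242266 the pooled level rounded to 20%, just inside, and on chromosome 8 from 64989243 to 64990240 and chromosome 20 from 55153072 to 55154061 it fell just short of that. On chromosome 1 from 221375853 to 221376843 and chromosome 19 from 1052264 to 1053260 it rounded to 80%, just inside, and on chromosome 20 from 28405115 to 28406110 and chromosome 3 from 42146738 to 42147136 it was just above. The widest ranges kept were 49.4 points, in the chromosome 19 region from 382772 named above, and 49.7 points on chromosome 5 from 183580940 to 183581304. The narrowest dropped were both 50.9 points, on chromosome 13 from 34402392 to 34403338 and chromosome 20 from 29817425 to 29818361. By the limit on animals at 40% to 60%, the region on chromosome 5 from 40380487 to 40381417 was kept with a highest animal that rounds to 60% and that on chromosome 20 from 2567337 to 2568246 with a lowest that rounds to 40%. The regions on chromosome 2 from 100258164 to 100259121 and chromosome 11 from 68338921 to 68339910, at 40% to 54.6% and 50.1% to 60%, were dropped.

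Even regions were unevenly placed along the genome. In the outermost 2 Mb of the measured chromosomes, 1215 of 6481 CpG-rich regions (18.7%) were even, against 4260 of 39501 (10.8%) elsewhere. Boundary-crossing regions went the other way, with 261 (4.03%) and 2205 (5.58%). Over the 20 chromosomes the share of even regions ran from 7.66% on chromosome 2 to 16.2% on chromosome 20, and chromosome 19 had 15.5%. In the 3 Mb around the second of the long runs, from 137 to 140 Mb of chromosome 6, 98 of 205 CpG-rich regions (47.8%) belonged to the set and 77 (37.6%) were even. The window was chosen with earlier results of these data known, and the shares were not tested, since neighbouring regions are not independent.

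**Figure D4:**
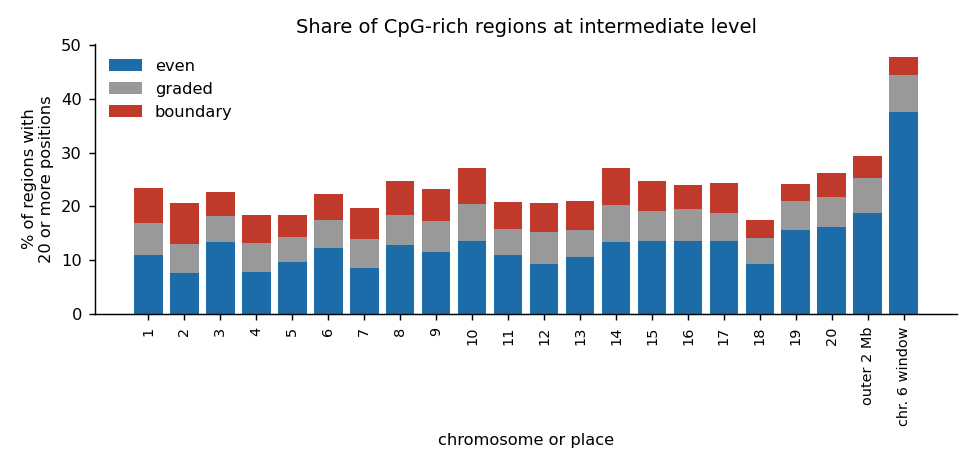
Stacked bars give the share of regions with 20 or more positions (y axis, percent, from 0) that were even, graded or boundary-crossing, for each of the 20 chromosomes, the outermost 2 Mb of all chromosomes and the window of 137 to 140 Mb on chromosome 6 (x axis). The even share is 37.6% in that window and 18.7% in the outermost 2 Mb, and at most 16.2% on any whole chromosome.

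The design implies a comparison of levels with the ethanol value recorded later. No region of the set was called in the moderated logistic model with cohort as a covariate: 0 of 10517 had an adjusted p under 0.05, as did 0% of the 119749 tested regions, and limma on logit methylation and edgeR also called 0 of the set. At an unadjusted p under 0.05 there were 452 regions of the set (4.30%), against 2.92% of all tested regions and 3.68% of the tested CpG-rich regions outside 20% to 80%. Of these 452, 327 rose with the ethanol value (3.11%, against 1.82% of all tested) and 125 fell (1.19%, against 1.1%). By class, 211 even (3.85%), 111 graded (4.31%) and 130 boundary-crossing regions (5.27%) were among them. The order against the background depended on the tool: limma had 166 regions of the set (1.58%) at an unadjusted p under 0.05 against 3.38% of all tested, and edgeR 167 (1.59%) against 3.28%. Without animal 9 of cohort 14, the animal with the highest ethanol value, the logistic model gave 1001 (9.52%) against 5.36%. A share near or below the background is no result about the set. Animals below an ethanol value of 3 and those at or above it did not overlap in 47 regions (0.447%), against 0.35% of all tested.

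The slopes of single regions were mostly smaller than their error. Without regard to sign, the median slope was 1.06 percentage points per unit of the ethanol value and the median standard error 1.70 points, and the slope was smaller than its standard error in 7465 regions (71.0%), against 69.6% of all tested. In 48.1% of the regions the slope's 95% interval held no value beyond 5 points per unit in either direction, and in 93.5% none beyond 10 points. Slopes above 0 numbered 6316 (60.1%), against 54.2% of all tested regions and 61.3% of the tested CpG-rich regions outside 20% to 80%. The share was 56.9% in even and 64.4% in boundary-crossing regions. Regions share their animals, so these shares are no count of independent results.

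The regions nearest to the threshold are given as not having passed, with an adjusted p that rounds to 1 for each in the moderated logistic model with limma's shrinkage. Among rising slopes the smallest unadjusted p was 0.000226, for 36 positions on chromosome 1 from 186893225 to 186894025, a boundary-crossing region. Its levels were 23.4% in the lowest, 26.3% in the median and 32.2% in the highest animal, animal 9 of cohort 14, and 25% ± 1.43 (SD, 6 animals below 3) against 29.8% ± 2.94 (SD, 5 animals at or above 3). A graded region of 55 positions on chromosome 20 from 53978193 to 53979162 had 64.0% ± 3.49 below 3 and 69.8% ± 2.56 at or above it. The even regions on chromosome 18 from 2931004 to 2931970 and on chromosome 4 from 142430055 to 142430732 had 74.2% ± 3.02 and 28.4% ± 3.30 below 3, and 78.9% ± 1.98 and 32.5% ± 1.3 at or above it. On chromosome 7 from 165204102 to 165205100, boundary-crossing, the levels were 56.3% ± 4.17 and 62.5% ± 2.99. The animals of both classes overlapped in each of these 5 regions.

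Among falling slopes the smallest unadjusted p was 0.000104, for a boundary-crossing region of 36 positions on chromosome 5 from 165823945 to 165824838. Its levels were 21.2% in the lowest, 25.3% in the median and 41.2% in the highest animal. Its slope, with cohort as a covariate, was -4.99 ± 0.788 points per unit (SE, 11 animals). Both animals of cohort 10 stood highest, at 41.2% and 33.9%, and the mean was 37.5% in cohort 10 and 25.8% in cohort 14. The cohort term of the same logistic model had an unadjusted p of 0.000122 and an adjusted p of 0.986. The steepest of the 5 was the even region on chromosome 14 from 80112424 to 80112901, 31 positions, where the level was 42.2% in the lowest animal, animal 9 of cohort 14, 59.4% in the median and 82.6% in the highest, animal 4, which has the lowest ethanol value. Its slope was -14.9 ± 3.45 points per unit. The graded region of 21 positions on chromosome 14 from 69384457 to 69384818 had 28.3% ± 5.46 below 3 and 19.4% ± 6.25 at or above it. It had 1086 or more counts per animal, summed over its positions. The even region on chromosome 3 from 44704924 to 44705821 had 61.6% ± 1.89 and 57.7% ± 2.23. On chromosome 14 from 117637438 to 117638413, graded, the levels were 29.5% ± 3.41 and 25.2% ± 5.06. Here too both classes overlapped in all 5, and the regions were picked for small p-values, so their slopes overstate what other animals would show.

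Averaged over each class, the animals were within about 2 points of each other. The mean level of the even regions ran from 57.4% in animal 4 of cohort 14 to 58.5% in animal 9, and its slope on the ethanol value was 0.29 ± 0.111 points per unit (SE, 11 animals). The graded regions ran from 43.3% to 44.7%, with a slope of 0.46 ± 0.130. The boundary-crossing regions ran from 36.3% in animal 4 to 38.0% in animal 5, with a slope of 0.47 ± 0.206, which was 0.79 ± 0.193 without animal 9 of cohort 14. Over all tested regions the slope was 0.10 ± 0.182. For the tested CpG-rich regions outside 20% to 80% no mean slope was computed. Of their single slopes 61.3% lay above 0, against 60.1% in the set. Whether the slopes of the class means are particular to the set was therefore not tested. Without the 4 libraries the slopes were 0.32 ± 0.125 in even, 0.45 ± 0.0683 in graded, 0.43 ± 0.252 in boundary-crossing and 0.24 ± 0.0981 in all tested regions. Within the boundary-crossing regions the slope was 0.35 ± 0.0795 on the low side and 0.28 ± 0.249 on the high side. Without the 4 libraries it was 0.34 ± 0.0233 on the low and 0.09 ± 0.206 on the high side. No p is given for these means, because the regions were chosen with results of these data known.

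**Figure D5:**
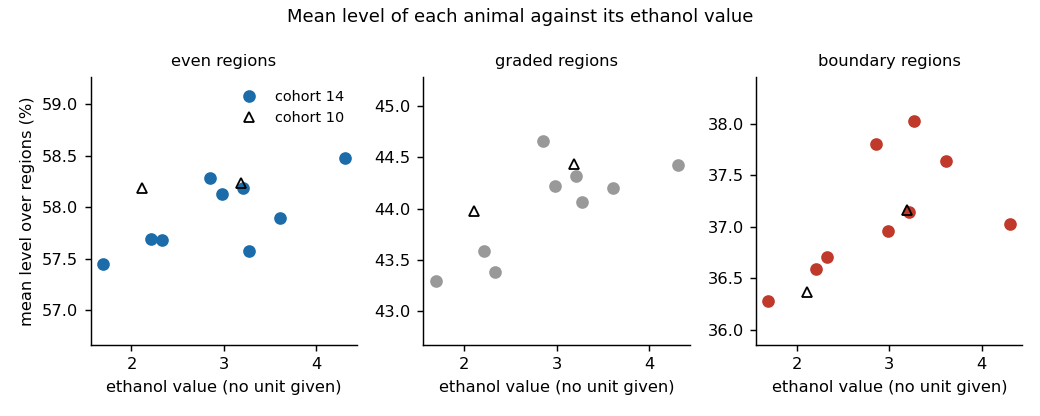
Mean methylation level over the even, graded and boundary-crossing regions (y axes, percent, all of the same span and not starting at 0) against the ethanol value (x axis, no unit given) for the 11 animals; filled circles are cohort 14 and open triangles cohort 10. Animal 4 of cohort 14, with the lowest ethanol value, is lowest in all 3 classes, and the animal with the highest ethanol value is highest in the even regions but not in the others.

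Cohorts 10 and 14 were compared by the cohort term of the same model. Of the 10517 regions 0 passed, as did 0% of all tested regions, with 414 (3.94%) at an unadjusted p under 0.05 against 2.47% of all tested and 4.27% of the tested CpG-rich regions outside 20% to 80%. Of the 414, 213 were higher in cohort 14 (2.03% of the set, against 1.69% of all tested regions), and 201 were lower in cohort 14 (1.91%, against 0.776%). By limma on logit methylation 0 passed with 229 at an unadjusted p under 0.05 (2.18%, against 3.67% of all tested), and by edgeR 0 passed with 224 (2.13%, against 3.49%), so the order against the background again depended on the tool. The boundary-crossing regions made up 199 of the 414, 8.07% of their class, against 2.23% of the even regions. Without animal 1 of cohort 10 that number was 83 (3.37%, against 1.58% of all tested), and without animal 2 it was 184 (7.46%, against 1.86%). By limma it was 107 (4.34%, against 3.67%) and by edgeR 104 (4.22%, against 3.49%). Animal 1 of cohort 10 was the lowest of the 11 animals in 387 boundary-crossing regions, more than any other. The cohorts did not overlap in 348 regions of the set (3.31%), against 3.24% of all tested regions and 5.10% of the tested CpG-rich regions outside 20% to 80%. Cohort 10 was the lower one in 197 of them (1.87% of the set, against 2.13% of all tested). Of the 348, 184 were boundary-crossing (7.46% of that class) and 81 even (1.48%). Every animal of cohort 10 was younger than those of cohort 14, and a fit with age beside cohort was not run.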

How the data were processed

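The deposited tables, 1 of methylated and 1 of total reads, hold whole-number counts per CpG position that the authors did not normalize. Per the submitters' processing notes FastQC and Bismark were used; no version is stated, and the genome build is not given in the sources used here. Per the labels' protocols DNA came from the Qiagen AllPrep kit. Of 16 library columns per table, 11 matched a label and 5 were not used. The lowest methylated and unmethylated counts were 1 and the lowest total was 12, as if 1 had been added to each, and the counts were used as deposited. Reads cannot be told from PCR copies, and counts at positions of the same read were treated as independent, so the counting errors given are too small.

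Regions with 5 or more positions and a pooled level of 5% to 95%, 119749 in all, were fitted together. Counts were fitted by quasi-binomial logistic regression on the ethanol value and cohort, with the dispersion shrunk by limma's squeezeVar, a two-sided Wald test and Benjamini-Hochberg adjustment at 0.05. Slopes in points came from least squares on levels with the same terms. The script was checked against R's glm and tested on simulated data. Alternatives were limma on logit methylation, edgeR, other covariates, coverage minimums, other region limits and leaving out each animal. Regions named were those with most positions, smallest p, largest and smallest SD, the longest even runs and those next to each limit. Gene lists and promoters were not analysed here. The members, classes and lists were chosen with earlier results of these data known. Leaving out animals 3, 6, 7 and 8 of cohort 14 together was chosen after seeing the data, as were the boundary profile, neighbour levels, correlations, places and gaps of 15 points. Work used Python 3.11.15, numpy 2.4.6, pandas 2.3.3, scipy 1.17.1, matplotlib 3.10.9, R 4.3.3, limma 3.58.1 and edgeR 4.0.16.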

Additional observations from a re-analysis of the deposited data

Results flagged for a closer look

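The 9 animals of cohort 14 were compared in 53 quantities, the levels of 50 named regions and the 3 class means, and in 5 of these a single animal lay apart. About 1 in 20 would be so by chance if the quantities had not been selected. The boundary-crossing region on chromosome 19 from 38495139 to 38496133 had 25.6% in animal 5 and 28.8% to 31.5% in the others of cohort 14. Animal 7 had 59.2% in the even region on chromosome 5 from 118646 to 119029 against 11.1% to 31.7% in the rest of the cohort. Animal 8 had 25.9% in the even region on chromosome 6 from 138793221 to 138793714 against 33.5% to 39.2% in the rest. Animal 6 had 71.3% in the even region on chromosome 14 from 1377195 to 1378129 against 52.8% to 61.7%. Animal 8 had 40% in the boundary-crossing region on chromosome 20 from 2567337 to 2568246 against 45.3% to 49.3%; without that animal's value the region would lie inside 40% to 60% in every animal. Of the 5 values, 4 came from animals 6, 7 and 8, which are among the 4 libraries named in the report for their low unmethylated counts.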

How the results depend on the processing

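In each of 23 alternatives 0 regions of the set passed for the ethanol value, and in each of 18 alternatives 0 passed for cohort. The 10 regions named for small p-values had slopes of unchanged sign in 230 of 230 fits and passed in 0. They were picked for small p-values in the same animals, which nearly fixes the sign in advance, so the unchanged sign is no support. The 452 regions at an unadjusted p under 0.05 for the ethanol value became 1364 with mean methylation as a covariate, 1001 without animal 9 of cohort 14, 853 with the ethanol value as 2 classes, 287 with age in place of cohort, 296 from positions with 50 or more reads, 166 by limma and 167 by edgeR; fewer regions were tested with 50 reads, and otherwise the cause was not tested. The 414 for cohort became 229 by limma and 224 by edgeR. The set of 10517 became 23348 with a minimum of 10 positions and 5891 with 30, and its even regions 16363 and 2486. Even regions numbered 3524 with limits of 20 and 40 points and 2515 by the share of positions at 20% to 80%. Boundary-crossing regions numbered 1255 with a joining distance of 100 bp, 679 with a split at 500 bp and 266 by the share of positions; the cause was not tested. Leaving out 1 animal gave slopes of the class mean of 0.22 to 0.32 in even and 0.36 to 0.79 in boundary-crossing regions, the last without animal 9 of cohort 14. No paired analysis was possible because replicates were numbered by accession, which pairs no animals across cohorts.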
